A study of Mus musculus with 6 samples.

Results

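Conventional CD4 T cells were followed in mammary tumours grown from Py8119, a mouse mammary tumour cell line, in female mice that lacked or carried the gene Mtdh. They were picked barcode by barcode from single-cell libraries of live CD45+ (leukocyte) cells: at least 2 UMIs of Cd3d, Cd3e and Cd3g together, at least 1 UMI of Cd4, no UMI of Cd8a, Cd8b1, Foxp3 or Trdc, and under 1% of UMIs from the macrophage genes C1qa, C1qb and C1qc. A UMI (unique molecular identifier) counts 1 captured transcript. Of 41267 deposited barcodes, 40418 were kept, with 200 or more genes and no more than 15% mitochondrial UMIs, and 375 of those were members. The same gate gave 3676 T cells in all, among them 2318 CD8 T cells and 90 Foxp3-positive regulatory T cells. The transcripts named in the gate chose the members, so their levels are a description.

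The 6 groups held 1 library each, with about 15000 sorted cells loaded for each. The intact KO library came from Mtdh knockout mice and the intact WT library from wild-type controls, neither irradiated. Each of the other 4 came from irradiated recipients given donor marrow: KO marrow in KO hosts, KO marrow in WT hosts, WT marrow in KO hosts and WT marrow in WT hosts. Host therefore means the genotype of the recipient's non-haematopoietic cells and marrow that of the transplanted immune system, which are the same in an intact mouse. Tumour cells were injected 8 weeks after the marrow and tumours were taken 4 weeks after the injection in all 6 groups. The labels call the mice Mtdh KO with no further allele or driver, no source used here gives the number of mice behind a library, and host T cells that survive irradiation cannot be told apart from donor T cells here. Libraries held 85616443 to 142779550 UMIs. The members of a library numbered 29 to 115 and held 205869 to 900126 UMIs, which is the depth behind every level below. Levels are in UMIs per 1000000 UMIs of the summed cells (CPM).

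Conventional CD4 T cells recognise peptides on MHC class II through the T cell receptor and the CD4 co-receptor, and help other cells through cytokines and surface ligands such as CD40 ligand. Before they meet antigen they recirculate through lymph nodes with the aid of Ccr7 and keep the transcription factors Lef1 and Tcf7. Afterwards they can take up helper fates, among them Th1 (Tbx21, interferon gamma), Th2 (Gata3, Il4), Th17 (Il17a) and follicular helper (Bcl6, Il21), and in tumours they often carry inhibitory receptors such as PD-1, encoded by Pdcd1.

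Outside the gate, receptor chain genes marked the members as T cells, and Cd40lg set them apart from CD8 T cells. At least 1 UMI of the receptor chain genes Trac, Trbc1 or Trbc2 was found in 342 of the 346 members that held little myeloid RNA (below). Cd40lg stood at 50.9 to 88.0 CPM in every library's members, against 0.169 to 8.11 CPM in CD8 T cells of the same libraries and at most 0.0576 CPM in macrophages. The gate rests on few molecules. A single Cd4 UMI admitted 182 of the 375 members and exactly 2 Cd3 UMIs admitted 13, while 22 barcodes with a Cd4 UMI had only 1 Cd3 UMI and stayed outside. A further 533 gated T cells had no UMI of Cd4, Cd8a, Cd8b1, Foxp3 or Trdc, and 74 had both Cd4 and Cd8 UMIs. Il2ra or Ikzf2, genes of regulatory T cells, had a UMI in 110 of the 346, and the gamma chain genes Tcrg-C1, Tcrg-C2 or Tcrg-C4 in 38.

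Some members were mixed barcodes that also carried myeloid RNA. Of the 375, 29 had at least 10 UMIs of 7 myeloid genes (Csf1r, Adgre1, Ms4a7, Cd68, Fcgr3, Tyrobp and Fcer1g): 14 in intact KO, 2 in intact WT, 4 and 2 with KO marrow in KO and WT hosts, and 2 and 5 with WT marrow in KO and WT hosts. No member had exactly 10, since the other 346 had at most 9 and the 29 had at least 11. Their median depth was 11341 to 26914 UMIs by library, against 4066 to 6739 for the other members. They supplied 45.2% of all member UMIs in intact KO and 7.07% to 20.2% in the other 5. Members just inside the macrophage limit, with a C1q share of 0.5% to 1%, numbered 19 and 18 of these were mixed; 40 barcodes met every other criterion at 1% to 1.5%. Scrublet, a doublet caller, put 14 of the 29 in its top 6% of scores, but its automatic call marked 0 to 58 barcodes per library and was not used. Across libraries 217 barcode sequences occurred more than once, 8 members had such a barcode, and no barcode was a member in more than 1 library. Gene levels below are those of all 375 members unless unmixed members are named, and the counts of genes called are given for both.

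**Figure D1:**
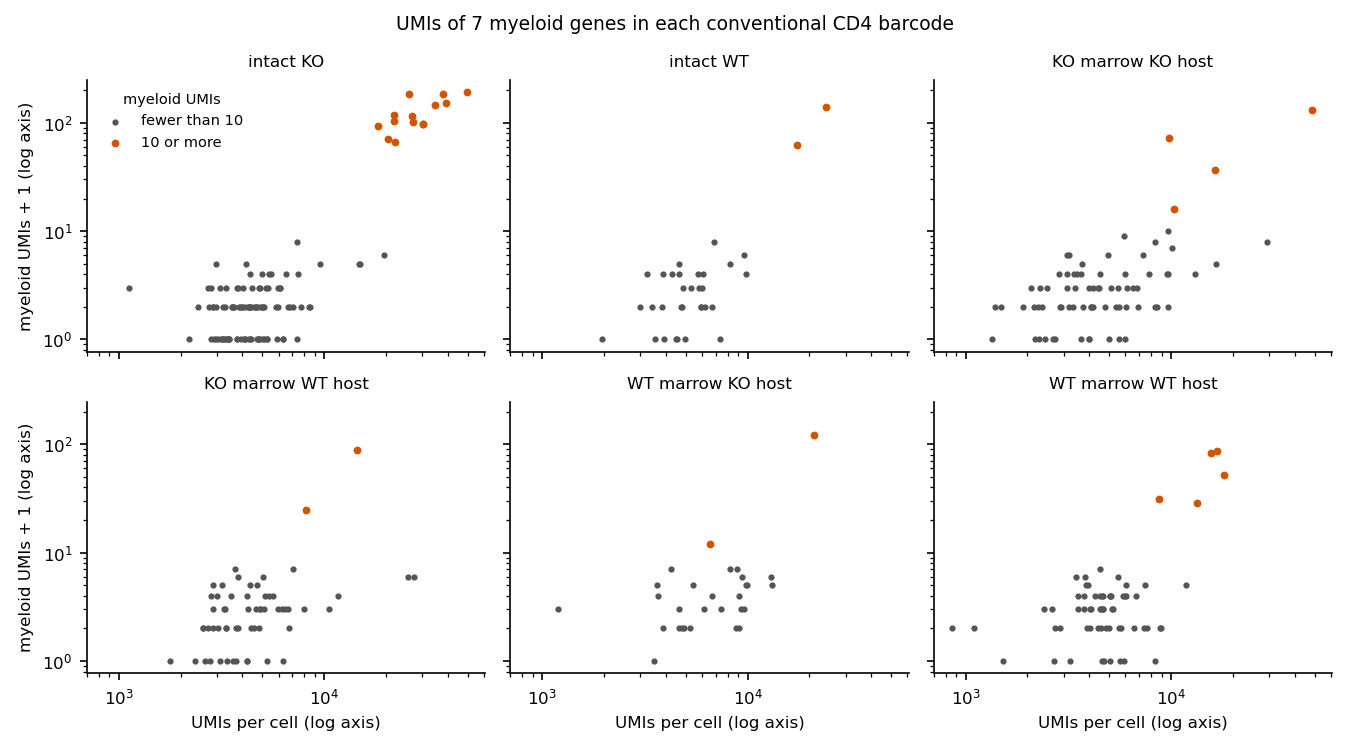
Each point is 1 conventional CD4 barcode, with its total UMIs (x, log axis) and its UMIs of 7 myeloid genes plus 1 (y, log axis), 1 panel per library. The 29 mixed barcodes, in orange, are set apart by their myeloid UMIs, overlap the other members in total UMIs, and 14 of them are in intact KO.

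Some RNA of other cells remained in the unmixed members. The summed level of 14 macrophage genes was 3160 to 5627 CPM in them, against 5287 to 24732 CPM in all members, with the highest value in intact KO. C1qa stood at 2.41% to 5.36% of its macrophage level. The limits on myeloid UMIs and on the C1q share hold both values down in advance. Summed neutrophil genes (6 genes) stood at 11.2 to 1125 CPM in all members, highest in KO marrow in WT host. In unmixed members the neutrophil sum was 6.11 to 65.2 CPM, so mixed barcodes held neutrophil as well as macrophage transcripts. Both Cd8 genes were at 0 by the gate. Summed natural killer and innate genes (8 genes, 4 of them without a UMI in any member) stood at 173 to 325 CPM in unmixed members. In all members they stood at 564 to 1312 CPM. The natural killer gene Klrb1c was at 0 in every library. Summed B cell genes (8 genes) ran from 17.2 CPM in WT marrow in WT host to 324 CPM in intact KO, and gamma-delta genes (8 genes, Trdc at 0 by the gate) from 16.3 CPM in intact KO to 153 CPM in intact WT. Of 4 genes of NKT cells, Klrb1c and Klra7 were at 0 and Zbtb16, their defining transcription factor, had a UMI in 2 of the 346 cells. The fourth, the chemokine gene Xcl1, which CD8 T cells of these libraries also held at 63.8 to 326 CPM, had a UMI in 15 of the 346 and stood at 263 CPM in intact WT, 132 CPM in intact KO and 0 to 51.8 CPM in the other 4. Mtdh, the targeted gene (GRCm38 15:34082694-34145624), followed the marrow label: 23.5 against 83.0 in intact mice, 11.1 against 74.1 in KO hosts and 15.6 against 77.0 in WT hosts CPM, KO marrow named first. These levels rest on 5 to 28 UMIs a library, and the 3 KO marrow libraries lay below all 3 WT marrow libraries, as did 2.68% of all genes tested. The fitted log2 difference was -2.34 (SE 0.43) with an adjusted p of 0.221 in edgeR's quasi-likelihood test, so the change did not pass the threshold of 0.05 at this depth.

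Members made up 0.463% to 1.64% of all kept cells. By library the shares were 1.64% in intact KO (115 cells), 0.463% in intact WT (33), 0.909% (74) and 1.004% (59) with KO marrow in KO and WT hosts, and 0.504% (29) and 1.0003% (65) with WT marrow in KO and WT hosts. Intact KO stood highest, and its exact 95% binomial interval, 1.35% to 1.96%, covers counting error only. KO marrow went with a higher share in 3 of 3 matched pairs, by 1.82 in intact mice, 0.85 in KO hosts and 0.0052 in WT hosts on the log2 scale (mean 0.89, p = 0.2, exact permutation test, two-sided, n = 3 and 3). The WT host pair turned to -0.085 with at least 2 Cd4 UMIs asked of a member. Without the top 6% of Scrublet scores it was -0.025. With host genotype the pairs went both ways, 1.82 in intact mice but -0.14 with KO marrow and -0.99 with WT marrow (mean 0.23, exact permutation p = 0.9). The smallest p that 3 against 3 libraries allow is 0.1, so none of these tests could pass 0.05.

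Within the T cells the order differed. Members were 14.3% of gated T cells in intact KO, 15.2% in intact WT, 4.35% and 12.8% with KO marrow in KO and WT hosts, and 17.8% and 19.6% with WT marrow in KO and WT hosts. All 3 KO marrow libraries stood below all 3 WT marrow libraries (mean log2 difference -0.91, exact permutation p = 0.1, n = 3 and 3). KO marrow in KO host, the lowest, held 1368 CD8 T cells beside its 74 members. The number of members per CD8 T cell was 0.294 against 0.398 in intact mice, 0.0541 against 0.341 in KO hosts and 0.239 against 0.451 in WT hosts, KO marrow first (mean log2 difference -1.34, exact permutation p = 0.1). Regulatory T cells per member went the other way with KO marrow, at 0.261 against 0.182 in intact mice, 0.351 against 0.0690 in KO hosts and 0.254 against 0.169 in WT hosts (mean log2 difference 1.15, exact permutation p = 0.1). The lowest of these ratios rests on 2 regulatory cells. Adjusted over the 12 permutation tests made on shares, ratios and cell states, those 3 p-values became 0.4. Without mixed barcodes the 3 marrow differences were -0.84, -1.23 and 1.01, with no overlap of the groups. With at least 2 Cd4 UMIs asked of a member they were -0.63 (exact permutation p = 0.3) for the share of T cells, -1.06 (exact permutation p = 0.2) per CD8 T cell and 0.72 (exact permutation p = 0.3) for the regulatory ratio. The groups then overlapped for each of the 3, and the regulatory ratio was lower with KO marrow in WT hosts (0.138 against 0.147). With 1 library left out the marrow differences ran from -1.22 to -0.36, from -1.79 to -0.57 and from 0.70 to 1.40, and the value of -0.57 for members per CD8 T cell was that without KO marrow in KO host.

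**Figure D2:**
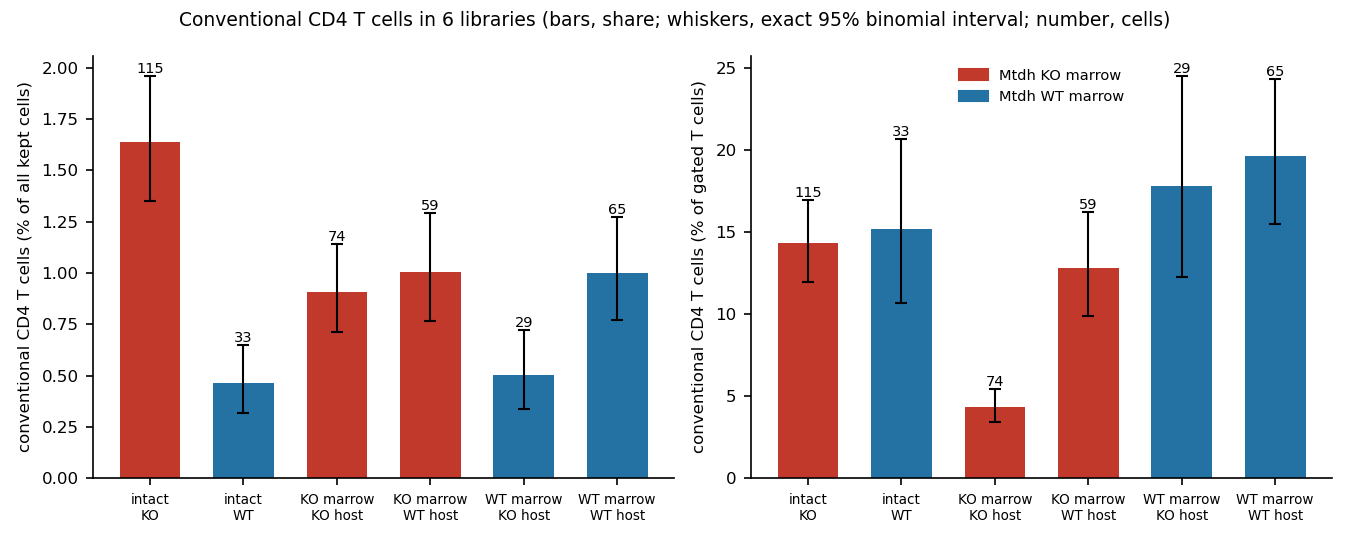
Bars give conventional CD4 T cells as a share (%) of all kept cells and of gated T cells in the 6 libraries, with exact 95% binomial intervals and the number of cells above each bar. Intact KO is highest among all cells (1.64%), and KO marrow in KO host is lowest among T cells (4.35%).

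The members were a mixture of resting and antigen-experienced cells, in proportions that differed between libraries. To put cells on 1 depth, each was thinned at random to 1500 UMIs, which left out 7 of the 375. A UMI of Ccr7 or Lef1, genes of resting T cells chosen here after the data were seen, then remained in 66.7% of members in intact KO, 24.2% in intact WT, 25.4% and 33.9% with KO marrow in KO and WT hosts, and 39.3% and 20.6% with WT marrow in KO and WT hosts. Intact KO stood apart from the other 5 libraries, and at the same depth 0% to 0.667% of macrophages had such a UMI. In host pairs the share was higher in KO hosts in intact mice and with WT marrow and lower with KO marrow. Among unmixed members it was 69% in intact KO, 29.0% in intact WT, 31.3% and 31.6% with KO marrow in KO and WT hosts, and 34.6% and 22.4% with WT marrow in KO and WT hosts. CD8 T cells, thinned alike, had such a UMI in 7.83% to 42.0%, with the lowest share in KO marrow in KO host. Lef1 (GRCm38 3:131110471-131224356), a transcription factor of resting T cells, measured 642 CPM in intact KO and 313 CPM in intact WT but 44.3 to 185 CPM in the 4 transplanted libraries; in unmixed members these were 1059, 367 and 54.6 to 202 CPM. It passed neither the host test (log2 0.47, SE 0.78) nor the marrow test (log2 0.02, SE 0.78), each with an adjusted p of 1 in edgeR's test. The intact libraries were counted with another Cell Ranger version than the transplanted ones, so intact and transplanted levels may not be on 1 scale.

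Inhibitory receptor genes were common. After thinning, a UMI of Pdcd1, Lag3, Havcr2, Tigit or Ctla4 was found in 28.9% of members in intact KO, 54.5% in intact WT, 42.3% and 49.2% with KO marrow in KO and WT hosts, and 46.4% and 42.9% with WT marrow in KO and WT hosts. Macrophages, thinned alike, had one in 7.67% to 17.3%. Intact KO again lay at the edge, and neither genotype separated the libraries (host -9.64 percentage points, exact permutation p = 0.2; marrow -7.83, exact permutation p = 0.4). These shares come from 1 random thinning. Averaged over all thinnings they were 31.0% in intact KO, 58.9% in intact WT, 52.2% and 46.3% with KO marrow in KO and WT hosts, and 35.9% and 41.8% with WT marrow in KO and WT hosts. Both transplanted host pairs and the KO host marrow pair then had the opposite sign, and the mean differences were -9.32 (host, exact permutation p = 0.3) and -2.34 (marrow, exact permutation p = 0.8). Without thinning and without mixed barcodes, Pdcd1 itself had a UMI in 16.8% of cells in intact KO, 51.6% in intact WT, 40% and 40.4% with KO marrow in KO and WT hosts, and 25.9% and 26.7% with WT marrow in KO and WT hosts. The costimulatory receptor Icos was spread evenly, from 391 to 577 CPM over the 6 libraries.

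Helper cytokines came from few cells. Among the 346 unmixed members, 39 had a UMI of Ifng, the Th1 cytokine, and 19 a UMI of Il17a, the Th17 cytokine; no cell had both. All 19 Il17a cells also had a UMI of Tmem176a or Tmem176b, a pair of membrane proteins that Th17 cells express, against 40.4% of the other cells. Cd40lg was found in 57.9% of them against 28.7%, and Ccr7 or Lef1 in 26.3% against 62.7%. Ifng cells were of another make: 74.4% had Pdcd1 against 25.4% of the other cells, 66.7% had the chemokine gene Ccl5 against 21.5%, 79.5% had the tissue-homing receptor gene Cxcr6 against 39.7%, and 46.2% had Mki67 or Top2a, genes of dividing cells, against 18.6%. Tmem176a or Tmem176b was found in 25.6% of Ifng cells and in 45.9% of the rest. Deeper cells show more genes together, these shares were not thinned, and no test was made across cells. Il17a and Ifng had no UMI in any of 300 macrophages per library thinned to 1500 UMIs.

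By library, Il17a had a UMI in 1, 1, 5 and 2 unmixed cells of intact KO, intact WT, KO marrow in KO host and KO marrow in WT host, and in 4 and 6 cells with WT marrow in KO and WT hosts. Its level was 3.35 against 9.77 in intact mice, 73.1 against 157 in KO hosts and 21.8 against 333 in WT hosts CPM, KO marrow first, lower in 3 of 3 pairs (log2 -2.40, SE 0.52, adjusted p = 0.474 in edgeR's test), and 1 cell gave 77.7% of the 121 UMIs in WT marrow in WT host. Ifng had UMIs in 7, 7, 13 and 6 unmixed cells of those first 4 libraries, and, with WT marrow, in none in KO hosts and 6 in WT hosts. Tbx21, the Th1 regulator, had 0 to 8 UMIs a library. Gata3 stood at 44.0 to 84.2 CPM in 5 libraries and at 153 CPM in WT marrow in KO host. No UMI of Il4 was seen, Il21 had 11 UMIs in intact WT and 4 in KO marrow in KO host only, and Bcl6 had 2 to 38 UMIs. Il2 had 1 to 16 UMIs. Dividing cells, with Mki67 or Top2a, were 10.9% of unmixed cells in intact KO, 25.8% in intact WT, 31.4% and 22.8% with KO marrow in KO and WT hosts, and 14.8% and 28.3% with WT marrow in KO and WT hosts.

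**Figure D3:**
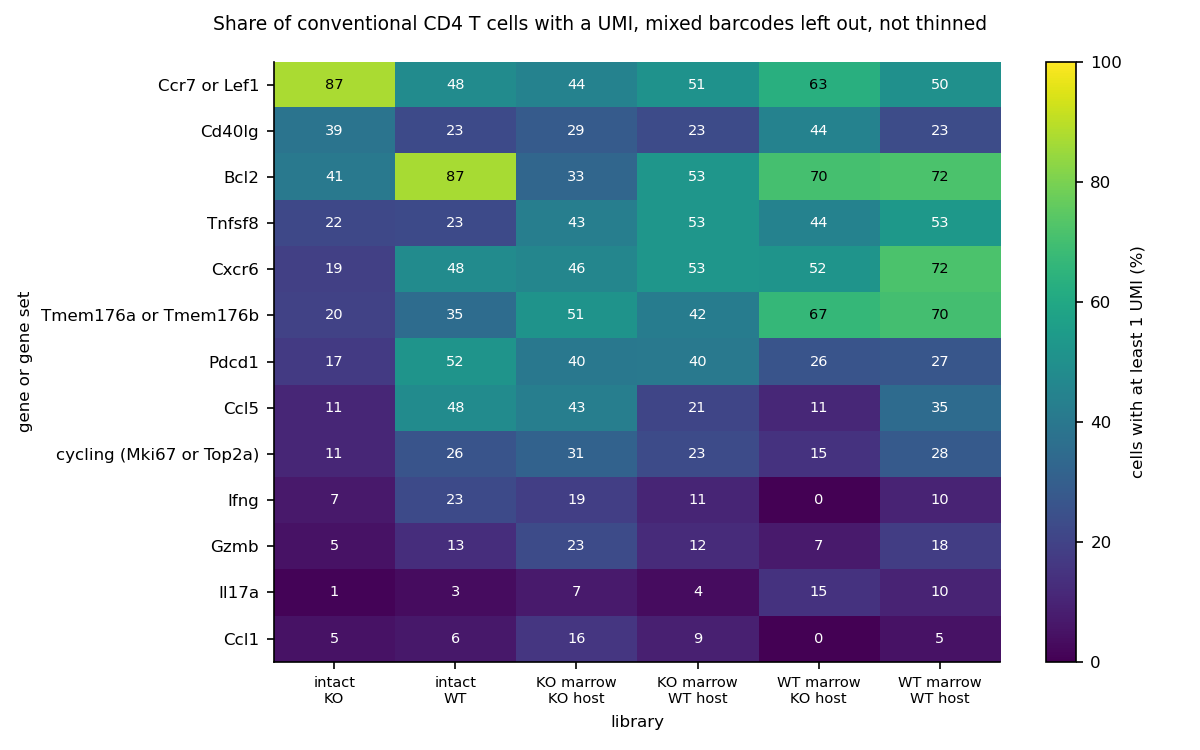
Each square gives the share (%) of unmixed conventional CD4 T cells with at least 1 UMI of a gene or gene set (rows) in a library (columns), not thinned. Ccr7 or Lef1 is highest in intact KO (87.1%), Bcl2 in intact WT (87.1%) and Tmem176a or Tmem176b in the WT marrow libraries of both transplanted hosts (66.7% and 70.0%).

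Against the other T cells of the same libraries, as a description without a test, 553 of 10683 genes were higher in members than in CD8 T cells in all 6 libraries and 470 were lower. The largest mean differences among the higher ones were Penk, the enkephalin precursor (log2 3.51), Krt83, a keratin (3.09), Rora, a nuclear receptor of helper lineages (2.82), Ramp3, a receptor activity modifying protein (2.67), and Tnfsf8, the ligand of CD30 (2.66). Lower were the granzymes Gzmf (-4.31) and Gzma (-4.12), Gm156 (-3.15), the interferon-induced Ifitm1 (-2.96) and the surface protein gene Ly6c2 (-2.94). Penk was uneven: 246, 151, 1056, 842, 662 and 74.2 CPM from intact KO to WT marrow in WT host in the order of the groups above, from 2 to 23 cells a library. Against regulatory T cells, 297 of 5899 genes were higher and 270 lower in all 6, with Tnfsf8, Bcl2, Ccl1, Gm2682 and Tcf7 leading the higher ones (mean log2 4.11 to 2.95) and Ikzf2, Itgb8, Gzmb, Klrg1 and Izumo1r the lower ones (-3.03 to -2.44). Tnfsf8 had a UMI in 1 library of regulatory cells only, at 50.1 CPM in intact KO, against 117.2 to 290.4 CPM in members. The regulatory sums came from 2 to 30 cells a library, so a level of 0 there can reflect few cells. Genes entered these comparisons with 50 or more UMIs in either class, so a gene could enter through 1 class alone.

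Host genotype changed no gene of the members past the threshold. UMIs were summed over the members of a library and fitted over all 6 libraries with terms for transplantation, host and marrow, which leaves 2 residual degrees of freedom. The intact pair enters only as host and marrow together. With edgeR, 0 of 5452 genes passed an adjusted p of 0.05 (0% called), 190 had an unadjusted p under 0.05, and DESeq2 called 1, the chemokine gene Ccl3 (log2 -2.86, adjusted p = 0.0494). Without mixed barcodes edgeR called 0 of 4727 (0%), with 181 under an unadjusted 0.05. Ccl3 and Ccl4, inflammatory chemokines, had lower levels in KO hosts in 3 of 3 pairs but did not pass in edgeR: Ccl3 stood at 11.2 against 73.3 in intact mice, 102 against 305 with KO marrow and 9.26 against 192 with WT marrow CPM, KO host first (log2 -2.55, SE 0.49, adjusted p = 0.723). Its UMIs came from 2 to 11 cells a library. Gzmb, a granzyme, was also lower in 3 of 3 pairs, at 60.3 against 132 in intact mice, 226 against 268 with KO marrow and 18.5 against 225 with WT marrow CPM (log2 -1.51, SE 0.61, adjusted p = 1). Fosb, an immediate early gene, was higher in 3 of 3 pairs (log2 1.58, SE 0.28, adjusted p = 0.306), and its level in intact KO was 402 CPM in all members but 34.6 CPM in unmixed ones. Other genes with 1 sign in 3 pairs and no call were Lgals3bp, Ccl8, Ncf1 and Capn1, higher in KO hosts, and Golim4, Ppp3cc and Ncapg2, lower. Among unmixed members Ccl8 was lower in the intact pair (10.2 against 24.5 CPM). Over all 5452 genes 11.3% were higher and 11.7% lower in all 3 host pairs, and the median difference was 0.0139 on the log2 scale.

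Gene groups showed the same for host. No member of any of the lists passed. The 16 proliferation genes had a median log2 difference of -0.38, with 0 of 16 of 1 sign in 3 pairs; among unmixed members the median was -0.65 and 6 of 16 were lower in all 3 pairs. For 15 tested interferon response genes the median was 0.16 with 5 higher in 3 pairs, and for 13 dissociation stress genes 0.24 with 5 higher. The 9 cytotoxic genes tested had a median of -0.70 with 2 lower in 3 pairs. Medians of the activation (0.044), T cell receptor (-0.084) and glycolysis lists (-0.027) lay near that of all genes.

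With marrow genotype 1 of 5452 genes passed in edgeR (0.0183% called), and DESeq2 called the same 1. It was Ccl1 (GRCm38 11:82176657-82305690), a chemokine that binds CCR8. Its level was 655 against 103 in intact mice, 111 against 4.63 in KO hosts and 299 against 13.7 in WT hosts CPM, KO marrow first, and the KO marrow libraries of the transplanted mice lay above both of their WT marrow libraries. Among unmixed members it was 1192 against 129 in intact mice, 136 against 0 in KO hosts and 322 against 17.2 in WT hosts CPM. The fitted log2 difference was 4.26 (SE 0.34, adjusted p = 0.000237 in edgeR's quasi-likelihood test), higher in 3 of 3 pairs. Intact WT, at 103 CPM, stood just under KO marrow in KO host, so the 3 and 3 libraries did not overlap, as for 2.95% of all genes in that direction. The UMIs came from few cells: 586 UMIs from 6 cells in intact KO, 21 from 2 in intact WT, 50 from 11 and 96 from 5 with KO marrow in KO and WT hosts, and 1 from 1 and 5 from 3 with WT marrow in KO and WT hosts. A single cell gave 90.3% of the UMIs in intact KO and 87.5% in KO marrow in WT host. When each cell counted once per gene, whatever its UMIs, Ccl1 was in too few cells to be tested and edgeR called 0 of 4429 genes for marrow (99 under an unadjusted 0.05) and 0 for host (94). In the fit with marrow but no host term Ccl1 also did not pass (log2 3.34, adjusted p = 0.306), and without members holding a UMI of Il2ra or Ikzf2 edgeR called 0 genes for marrow. Of the 26 unmixed cells with a Ccl1 UMI, 69.2% had Pdcd1 against 27.8% of the others and 46.2% had Penk against 12.2%. These shares pool cells of all libraries and were neither thinned nor tested.

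Without mixed barcodes 5 of 4727 genes passed for marrow (0.106% called), 2 higher with KO marrow (0.0423%) and 3 lower (0.0635%). Ccl1 was among them (log2 4.59, adjusted p = 3.12e-06 in edgeR's test). The other higher one, Serpinb9b, had no UMI in any WT marrow library and was not tested in the fit of all members (below). The lower ones were Tmem176a, Tmem176b and Bcl2. Tmem176a (GRCm38 6:48840919-48847071) and Tmem176b (6:48833818-48841496) overlap at their starts on opposite strands. Tmem176a stood at 34.6 against 129 in intact mice, 259 against 786 in KO hosts and 221 against 580.1 in WT hosts CPM among unmixed members, KO marrow first. It was lower in all 3 pairs, but intact WT lay below both KO marrow libraries of transplanted mice, so the groups overlapped (log2 -1.76, adjusted p = 0.00353 in edgeR's test). Tmem176b followed it, at 83.5 against 214 in intact mice, 246 against 701 in KO hosts and 302 against 689.9 in WT hosts CPM (log2 -1.45, adjusted p = 0.0173 in edgeR's test), with the same overlap. In all 375 members the differences were -1.54 (adjusted p = 0.153) and -1.22 (adjusted p = 0.454). Macrophages also carry both transcripts, Tmem176a at 177 to 387 CPM, and unmixed members of WT marrow in WT host exceeded the level of that library's macrophages, at 222% for Tmem176a and 157% for Tmem176b. By cells, 66.7% and 70.0% of unmixed members had either gene in the transplanted WT marrow libraries, 51.4% and 42.1% in the transplanted KO marrow libraries, 19.8% in intact KO and 35.5% in intact WT. Counting cells in place of UMIs, Tmem176a differed by -0.82 with an adjusted p of 1 in edgeR's test.

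Bcl2 (GRCm38 1:106538178-106714274), which protects cells from apoptosis, stood at 304 against 1365 in intact mice, 100.95 against 382 in KO hosts and 245 against 467 in WT hosts CPM among unmixed members, KO marrow first. Intact WT was far above the other 5 libraries, and all 3 pairs were lower with KO marrow (log2 -1.51, adjusted p = 0.0189 in edgeR's test without mixed barcodes; -1.62, SE 0.30, adjusted p = 0.221 with them). CD8 T cells of the same libraries showed a like order, 344 against 1123 in intact mice, 254 against 449 in KO hosts and 503 against 541 in WT hosts CPM, and the difference between the classes was not called. Because the Cell Ranger version differed, levels of intact and transplanted libraries may not be on 1 scale. Without the library of WT marrow in KO host the Bcl2 difference was -0.90 (adjusted p = 1 in edgeR's test), and that of Tmem176a -1.28 (adjusted p = 1). Serpinb9b, an intracellular serpin (GRCm38 13:33027416-33041884), was the second higher gene without mixed barcodes. It had 24, 56 and 5 UMIs in the KO marrow libraries (intact, KO host, WT host) from 1, 5 and 2 cells. None was found in any WT marrow library, so no fold is given. Its call thus rests on few cells, and the gene was not tested in the fit of all members. Without mixed barcodes and with each cell counted once per gene, edgeR called 0 of 3895 genes for marrow.

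**Figure D4:**
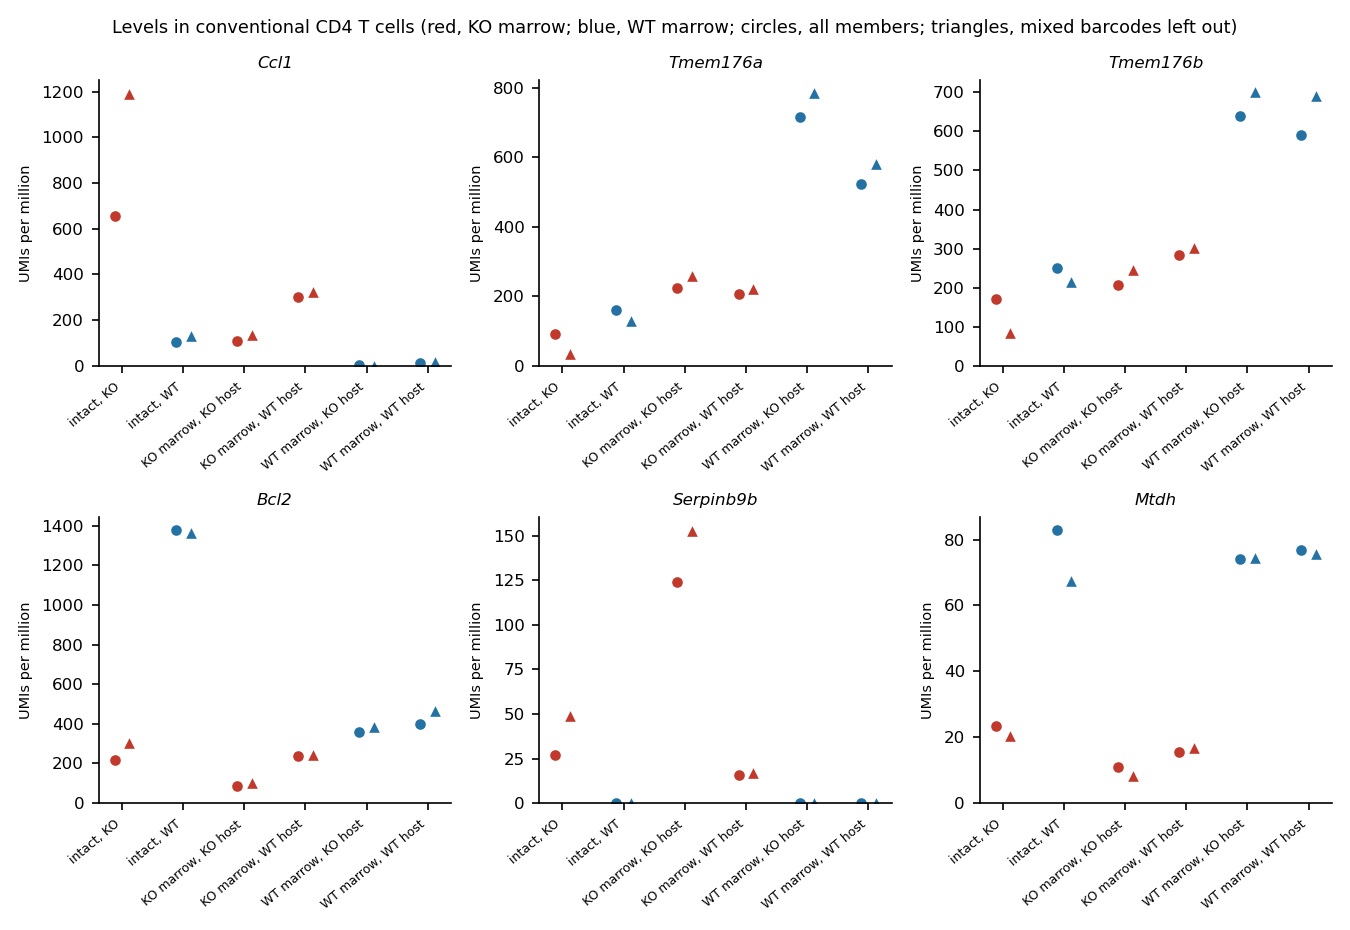
Levels (CPM) of Ccl1, Tmem176a, Tmem176b, Bcl2, Serpinb9b and Mtdh in each library, KO marrow in red and WT marrow in blue, with all members as circles and unmixed members as triangles. Intact KO is highest for Ccl1, where 1 cell gave 90.3% of its UMIs, and intact WT is highest for Bcl2.

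The remaining helper genes are given by group for marrow. Of the 5 Th17 genes tested, 4 were lower in all 3 pairs and the median was -1.26 (0 called in all members; Tmem176a and Tmem176b called lower without mixed barcodes, where the median was -1.48). Over all genes 12.1% were lower and 12.8% higher in 3 marrow pairs, with a median of 0.0040. The 8 Th1 genes tested had a median of -0.094, and the 16 proliferation genes 0.92 with 5 higher in 3 pairs. Among genes of 1 sign that did not pass were the histone genes Hist1h2ab (log2 3.03, adjusted p = 0.42 in edgeR's test), Hist1h3c and Hist1h2ap and the granzyme Gzme, higher with KO marrow, and Podnl1, F13a1, Gimap5 and Znrf1, lower. Gzme had 33, 26 and 4 UMIs in the KO marrow libraries and none in the WT marrow ones. Il7r, the receptor that sustains resting T cells, was lower in 3 of 3 pairs at 393 against 420.1 in intact mice, 381 against 607 in KO hosts and 380.3 against 769.6 in WT hosts CPM (log2 -0.74, SE 0.27, adjusted p = 1).

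In the 2 libraries where host and marrow both lacked Mtdh, intact KO and KO marrow in KO host, 8 of 5452 genes passed against the other 4 libraries (0.147% called), a contrast taken up because of earlier results of these data. Bcl2 was lower (0.0183%). The 7 higher ones (0.128%) were the MHC class II genes H2-Aa and H2-Ab1, the chemokines Cxcl9 and Cxcl10, and Cst3, Naaa and Napsa, genes of antigen-presenting cells. Without mixed barcodes 12 of 4727 passed (0.254% called), 10 higher (0.212%) and 2 lower (0.0423%), and 3 genes were in both sets: Bcl2, Cxcl9 and Cxcl10. Macrophages showed the same order for Cxcl9, at 1976 CPM in intact KO and 2266 CPM in KO marrow in KO host against 28.5 to 199.7 CPM in the other 4, and unmixed members held 2.58% and 2.89% of those 2 levels, where they held 2.41% and 2.93% of the C1qa level. For Cxcl10, macrophages had 507 and 723 CPM against 61.8 to 210.3 CPM, and unmixed members held 3.21% and 25.7%. The part of macrophage RNA in both calls was not tested. The MHC class II gene H2-Aa had the same order over the 6 libraries in unmixed members as in macrophages. In unmixed members it ran from 41.2 CPM in WT marrow in WT host to 423 CPM in KO marrow in KO host. Those levels were 4.24% to 7.48% of the macrophage level by library. After thinning to 1500 UMIs, 62.0% of unmixed members in intact KO and 76.1% in KO marrow in KO host had a UMI of H2-Aa, H2-Ab1 or H2-Eb1, where 100% and 99.7% of macrophages did. The share was 39.7% in WT marrow in WT host, where 50% of macrophages had one. Whether the MHC class II UMIs of members came from the cells themselves was not tested.

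A host by marrow interaction term, fitted with 1 residual degree of freedom, was called for 9 of 6588 genes in members (0.137% called). Gzmc, a granzyme gene, led it with 171 UMIs in WT marrow in KO host, of which 1 cell gave 87.1%, and 1 to 38 UMIs in the other 5 libraries.

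The host effect was also compared between members and CD8 T cells of the same libraries, as the class by host term of a fit on the 12 sums with the library as a block. It was called for 39 of 8860 genes (0.44% called), 14 with a more positive host effect in members (0.158%) and 25 with a more negative one (0.282%). Of the 39, 28 were called without mixed barcodes, where 67 of 6975 passed (0.961%), and 9 when cells were counted in place of UMIs, where 21 of 7797 passed (0.269%). The same 9 genes passed under both, Igfbp7, Creb3l2, Rgs16, Dusp4, Ikzf2 and Tnfrsf4 on the negative side and Emb, Lef1 and Cmah on the positive side.

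Rgs16, Dusp4, Tnfrsf4 and Igfbp7 rose with KO host in CD8 T cells, and members differed from that. Rgs16 (GRCm38 1:153740349-153745468), a regulator of G protein signalling, stood in CD8 T cells at 176 against 38.1 in intact mice, 239.7 against 37.0 with KO marrow and 262 against 55.4 with WT marrow CPM, KO host first. Conventional CD4 T cells had 67.0 against 68.4 in intact mice, 182 against 153 with KO marrow and 60.2 against 85.2 with WT marrow CPM. In CD8 T cells each KO host library was above its WT host partner and the groups did not overlap; in members 1 of 3 pairs was higher. Among unmixed members Rgs16 stood at 118 against 85.7 in intact mice, 180.1 against 164 with KO marrow and 37.2 against 106 with WT marrow CPM, higher in 2 of 3 pairs, and the difference between the classes was -2.96 (adjusted p = 4.46e-06 in edgeR's test). The host effects differed by -2.73 (log2, SE 0.33, adjusted p = 6.2e-05 in edgeR's test), being 2.46 in CD8 T cells (adjusted p = 0.000978) and -0.23 in members (adjusted p = 1). Dusp4, a MAP kinase phosphatase, gave 70.2 against 6.14 in intact mice, 73.8 against 16.2 with KO marrow and 88.1 against 8.17 with WT marrow CPM in CD8 T cells. Members gave 36.9 against 44.0 in intact mice, 115 against 115 with KO marrow and 92.6 against 55.0 with WT marrow CPM, at equal levels in KO and WT hosts with KO marrow (difference of effects -2.60, SE 0.41, adjusted p = 0.00102 in edgeR's test).

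Tnfrsf4 (GRCm38 4:156013843-156016612), which encodes the costimulatory receptor OX40, had a high level in members whatever the host, 268 against 376 in intact mice, 1020.5 against 633 with KO marrow and 486 against 456 with WT marrow CPM, KO host first. Among unmixed members its level in intact KO was 452 CPM. In CD8 T cells it was at 116 against 35.6 in intact mice, 219.7 against 54.9 with KO marrow and 173 against 54.4 with WT marrow CPM, higher in KO hosts in 3 of 3 pairs without overlap. The difference of effects was -1.65 (SE 0.26, adjusted p = 0.000955 in edgeR's test), and counting cells it was -1.90 (adjusted p = 7.17e-07). Igfbp7, a secreted growth factor binding protein, was at 47.7 against 2.46 in intact mice, 38.1 against 5.197 with KO marrow and 91.6 against 5.44 with WT marrow CPM in CD8 T cells. Members gave 27.9 against 24.4 in intact mice, 37.6 against 106 with KO marrow and 23.2 against 13.7 with WT marrow CPM, KO host first. The level of Igfbp7 in members was thus higher in KO hosts in intact mice and with WT marrow. It was lower only with KO marrow, and it rested on 1 to 13 cells a library (difference of effects -4.37, SE 0.58, adjusted p = 8.04e-05 in edgeR's test). Ikzf2, the transcription factor Helios, and Creb3l2, a membrane-bound transcription factor, had differences of -1.78 and -3.80.

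On the positive side, Lef1 was lower in CD8 T cells of KO hosts in 3 of 3 pairs, 241 against 436 in intact mice, 6.83 against 165 with KO marrow and 55.6 against 81.7 with WT marrow CPM, and went both ways in members, 642 against 313 in intact mice, 44.3 against 149.6 with KO marrow and 185 against 63.2 with WT marrow CPM, KO host first. The difference of effects was 2.21 (SE 0.29, adjusted p = 8.04e-05 in edgeR's test), though the CD8 effect alone, -1.86, did not pass (adjusted p = 0.701). Emb, which helps carry monocarboxylate transporters to the cell surface, stood at 684 against 371 in intact mice, 595 against 629.7 with KO marrow and 644 against 761 with WT marrow CPM in members and at 381 against 371 in intact mice, 93.4 against 355 with KO marrow and 174 against 375 with WT marrow CPM in CD8 T cells (difference 1.27, SE 0.23, adjusted p = 0.00612 in edgeR's test). Cmah, a sialic acid hydroxylase, had a difference of 2.61. Of the 39, the class term was called with every single library left out for 7, Igfbp7, Rgs16, Dusp4, Tnfrsf4, Lef1, Mt1 and Lmna. Creb3l2, Ikzf2, Emb and Cmah were each called in 5 of those 6 fits. Lmna did not pass without mixed barcodes (log2 0.64, adjusted p = 0.768 in edgeR's test), and neither Lmna nor Mt1 passed when cells were counted. Leaving out 1 library, 13 of the 39 were called in the absence of KO marrow in WT host, 26 when WT marrow in KO host was dropped, and 36 to 39 for each of the other 4 libraries.

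**Figure D5:**
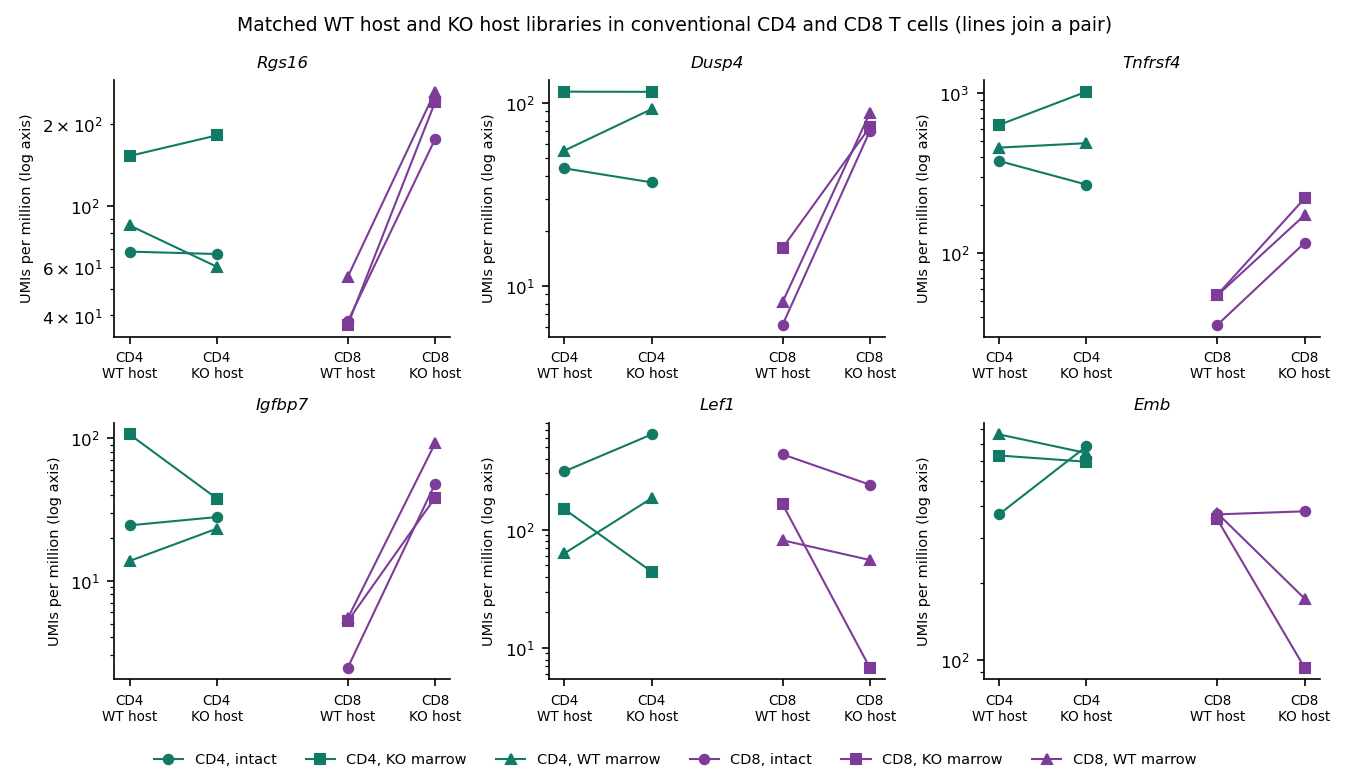
Lines join the WT host and KO host libraries of a matched pair (circles, intact; squares, KO marrow; triangles, WT marrow) for 6 genes, in conventional CD4 T cells (green) and CD8 T cells (purple), as CPM on a log axis. All 3 CD8 lines go up for Rgs16, Dusp4, Tnfrsf4 and Igfbp7, while the CD4 lines do not go up together.

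The host effect in members less that in CD8 T cells had a median of 0.0206 over all genes tested. Of the naive and central memory genes Lef1, Klf2 and Satb1 were called. Klf2 and Satb1, which keep T cells at rest, did not pass without mixed barcodes. The 16 cytotoxic genes tested had a median of -1.21, with Gzmd, Prf1 and Serpinb9 called lower. Prf1 (GRCm38 10:61297833-61304680), the pore-forming perforin, was at 9.77 to 65.5 CPM in members and at 244 against 57.7 in intact mice, 689 against 111 with KO marrow and 551 against 76.2 with WT marrow CPM in CD8 T cells, KO host first (difference -3.30, SE 0.42, adjusted p = 6.55e-05 in edgeR's test), but when cells were counted its difference was -0.91 with an adjusted p of 1. Gzmd turned to a positive difference without KO marrow in KO host (0.74) or without KO marrow in WT host (2.12). For 13 inhibitory receptor and exhaustion genes the median was -1.17, with Rgs16 called, and for 10 activation genes -0.59, with Tnfrsf4 and Tnfrsf9 called. Proliferation genes had a median of -1.02 and none was called. The marrow effect differed between the classes for 1 of 8860 genes (0.0113% called), H2-Aa (log2 -1.48), whose difference was 0.22 without mixed barcodes.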

How the data were processed

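Live CD45+ cells of 6 mammary tumour samples were measured with 10x Genomics 3' v3.1 droplet libraries. Each deposited file holds whole-number UMI counts by gene and barcode, from the authors' run of Cell Ranger 7.0.1 for the intact libraries and 6.1.1 for the transplanted ones, per the file headers. The build mm10 is named in the submitters' processing notes; no source used here says whether intronic reads were counted, and the software version cannot be told apart from transplantation. The 30406 genes shared by all files were used. No doublets were removed. Results that need certain genes, among them the planned comparison of naive cell shares, are not reported here.

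The members, gene lists and contrasts were chosen with earlier results of these data known. UMI counts were summed per library and class and fitted with edgeR 4.0.16 (TMM scaling, filterByExpr, robust quasi-likelihood F test, Benjamini-Hochberg over all genes tested, threshold 0.05) in R 4.3.3; DESeq2 1.42.0 was an alternative. TMM factors were 0.862 to 1.10. Each group holds 1 library, so the error is the disagreement between matched pairs of libraries, with 2 residual degrees of freedom, and p-values measure only the spread between these libraries. Shares and ratios were compared by two-sided exact permutation of 3 against 3 libraries. Cells were thinned to 1500 UMIs with a fixed seed. Mixed barcodes (at least 10 UMIs of 7 myeloid genes), counting each cell once per gene, and averaging over all thinnings were alternatives added after the data were seen. In simulated counts for 4953 genes the host test recovered 77 of 100 genes changed 4-fold and 84 of 100 changed 8-fold, with 5 false calls. The simulated counts had no transplantation effect and did not model single cells that carry most UMIs of a gene. These rates therefore do not measure what the fit could find in the real libraries.

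Named genes were those past the threshold with the largest change and 1 sign in all 3 pairs, filled to 5 a direction, from genes with 50 or more UMIs, by the largest value of the smallest of the 3 pair ratios (10 CPM added), plus up to 4 highest members of each list, list members past the threshold, defining cytokines and regulators, and Mtdh. Positions come from GENCODE M21 (GRCm38). Intervals are exact (Clopper-Pearson, 95%) and cover counting error only.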

Additional observations from a re-analysis of the deposited data

Results flagged for a closer look

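For 39 genes the effect of host genotype differed between conventional CD4 and CD8 T cells by the class by host term of edgeR's quasi-likelihood test, and for 1 gene, H2-Aa, the effect of marrow genotype did. Of the 39, 9 passed both without mixed barcodes and when each cell counted once per gene. The H2-Aa difference, -1.48 on the log2 scale, was 0.22 without mixed barcodes.

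For 9 of 6588 genes the host effect in conventional CD4 T cells differed with marrow genotype (0.137% called, 1 residual degree of freedom). Gzmc, the strongest, had 171 and 4 UMIs with WT marrow in KO and WT hosts, 25 and 38 with KO marrow, and 18 and 1 in intact KO and WT. The cell division genes Ube2c, Cenpf and Nusap1 had no UMI in WT marrow in KO host, which held 29 members, and 96, 54 and 46 UMIs in WT marrow in WT host. The other genes were Apoe, Cd74 and H2-Eb1, which macrophages express, with Plac8 and Nrgn.

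The conventional CD4 share of all cells was 1.8211 higher in intact KO than in intact WT on the log2 scale and lower in KO than in WT hosts in both transplanted pairs (-0.14 and -0.99). The difference between the pairs was not tested, and intact pairs also differ in marrow genotype.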

How the results depend on the processing

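No paired analysis was possible because every group holds 1 library, so no replicate numbers pair samples; the matched pairs above are pairs of groups, and the block of the class fit is the library. The count of host genes, 0, became 1 with DESeq2 (Ccl3), 18 with no count filter, 3 in transplanted libraries only (Arg1, Ccrl2, S100a8), 14 with a host by marrow term, 2 without the top 6% of Scrublet scores (S100a8, S100a9), 8 with a single term for both KO, and 4 to 30 with 1 library left out. The count of marrow genes, 1, became 25 with no filter, 5 in transplanted libraries only, 0 without the host term, 4 with the interaction, 2 with at least 2 Cd4 UMIs (Ccl1, Ccr7), 0 without cells holding Il2ra or Ikzf2 UMIs, 3 without top Scrublet scores, 5 without mixed barcodes, 0 when cells were counted with or without them, 8 for both KO, and 3 to 54 with 1 library left out. Ccl1 kept its direction wherever it was tested, and its adjusted p with 1 library left out was at most 0.0489 (without KO marrow in WT host). Genes whose host effect differed from CD8 T cells, 39, became 96 with no filter, 67 without mixed barcodes, 21 with cells counted and 65 to 257 with 1 library left out; for marrow the count of 1 became 0 without TMM scaling, 32 with no filter, 0 without mixed barcodes, 0 with cells counted and 16 to 107 with 1 left out. Fits with 1 library fewer leave 1 residual degree of freedom. Without TMM scaling the median marrow difference of all genes was 0.12 in place of 0.0040.

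With 1 library left out the host difference in the share of all cells ran from -0.19 to 0.65, in the share of T cells from -0.99 to 0.030 and in regulatory cells per member from -0.57 to 0.61; the last was 0.41 with at least 2 Cd4 UMIs. The marrow difference in inhibitory receptor cells was 1.59 percentage points at 2500 UMIs. Reversed genes were H2-Aa without mixed barcodes (0.22) and Gzmd without KO marrow in KO host (0.74) or KO marrow in WT host (2.12), from a range of -4.57 to 2.12 with 1 library left out. Of 803 recomputed values for 64 gene results, 645 kept direction and side of the threshold, 89 lost the call, 66 gained it and 3 reversed; the causes were not tested. Levels under about 3 UMIs a library, and differences of a few cells, are not detectable at 29 to 115 members a library.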
